A study of Oryza sativa with 4 samples.

Results

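The HD-Zip genes of rice were examined in young panicles of the mutant *phoenix* (*pho*) and of its wild type (WT). Members were taken by name, as every gene whose symbol or synonym is *HOX*, *ROC* or *HB* followed by a number, and 39 genes of the rice assembly ASM3414082v1 had such a name. Among these, 4 are non-symbiotic haemoglobin genes, whose synonyms *hb1* to *hb4* stand for haemoglobin, and they were kept apart. Of the remaining 35 genes, 33 could be read by at least 1 probe set that names no other gene, out of 17905 such genes on the array, and *HOX3* and *ROC9* could not. By their names, 12 of the 33 belong to class I, 8 to class II, 5 to class III and 8 to class IV. *pho* is a spontaneous mutant of the *indica* cultivar Zhongxian 3037 that forms plantlets in place of flowers. The study describes it as carrying a sequence change in *OsMADS15* together with a silenced *OsMADS1*, and WT is Zhongxian 3037 itself. The plants sampled for the arrays grew in paddy fields in Beijing, and whole panicles were collected. There was 1 array per genotype for panicles of 9–12 cm and 1 for panicles of 5–8 cm, hence 2 *pho* and 2 WT arrays. A line in the description of the 9–12 cm WT sample names *pho*, while its title, source and genotype give WT, and it was used as WT.

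HD-Zip proteins are transcription factors found in plants, in which a homeodomain that binds DNA is followed by a leucine zipper through which the proteins pair. Class I members are best known for responses to drought and abscisic acid (ABA) and for the control of organ growth, and class II members for responses to shade and auxin. Class III members specify the upper side of leaves, the shoot meristem and the vascular tissue, and their transcripts are cut under the guidance of miR166. Class IV members act in the epidermis, the outermost cell layer, and classes III and IV share a domain related to lipid binding. In panicles, these genes therefore touch meristems, the outer surface of spikelets and the growth of the stalk.

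Signals are MAS5 values on a linear scale, scaled by the authors to the same overall intensity on every array, and the array medians were 68.1 and 50.5 in *pho* and 60.5 and 49.0 in WT at 9–12 and 5–8 cm. The *pho* array of 9–12 cm stood apart, with correlations of 0.796 to 0.827 with the other arrays across probe sets, compared with 0.877 to 0.935 among the others. RNA quality was gauged by control probes, by the ratio of 3′ to 5′ signal. For actin it was 5.26 in *pho* and 4.95 in WT at 9–12 cm, and 3.28 in *pho* and 10.6 in WT at 5–8 cm. For GAPDH it was 11 in *pho* and 9.62 in WT at 9–12 cm, and 6.87 in *pho* and 16.4 in WT at 5–8 cm. Both controls were highest on the WT array of 5–8 cm, which enters every ratio at that length. *OsMADS1* had signals of 109 and 4.60 in *pho* and of 10671 and 10166 in WT. Anther and tapetum genes, of which 8 of 9 were lower in *pho* at both lengths, had summed signals of 4166 and 5750 in *pho* and of 57115 and 15488 in WT over 10 genes. Leaf and chloroplast genes, of which 10 of 11 were higher in *pho* at both lengths, had summed signals of 71889 and 41547 in *pho* and of 21856 and 29622 in WT over 12 genes. Among floral organ MADS-box genes, 11 of 14 were at least 2-fold lower in *pho* at both lengths. Of all 23929 tested probe sets, 7768 were lower at both lengths, 6818 higher at both and 454 at least 2-fold lower at both. The part of these tissue differences, of the RNA quality and of the array that stood apart in the results for HD-Zip genes was not tested. In whole panicles, fewer cells of a type and less RNA per cell cannot be told apart.

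No HD-Zip gene passed the test of *pho* against WT, and neither did any other probe set, *OsMADS1* included (adjusted p = 0.181 from limma), so the test says nothing about which members are alike in the 2 genotypes. In the test with limma over all probe sets, 0 of the 29 members with a mean signal of at least 100 passed at an adjusted p under 0.05, and the share of all 23929 tested probe sets that passed was 0%. The smallest adjusted p of a member, read by its probe set with the highest mean, was 0.636. At an unadjusted p under 0.05, 2 members were higher and 2 lower in *pho*, compared with 826 and 809 probe sets in all. The spread in this test includes the difference in panicle length, and no source states that the arrays of a genotype stand for separate plants, so a p measures only the spread between these arrays. With panicle length as a block, 40 probe sets passed but 0 members did.

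The differences in signal were larger in the longer panicles. All ratios below are log2 ratios of *pho* over WT with 16 added to both signals, and each rests on 1 array per genotype. At 9–12 cm, 6 of the 29 tested members were at least 2-fold higher in *pho*, beside 13.3% of all tested probe sets, and 5 were at least 2-fold lower, beside 10.5%. At 5–8 cm, 2 were at least 2-fold higher (5.62% of all) and 0 were at least 2-fold lower (3.78% of all). With each gene read by its probe set with the highest mean, only *HOX13* was at least 2-fold higher at both lengths (2.38% of all). On the same probe sets, 0 members were at least 2-fold lower at both (1.90% of all). A further probe set of *HOX10* was also at least 2-fold higher at both. A further probe set of *HOX19* was at least 2-fold lower at both, but its mean signal of 32.9 was under the filter. Both *pho* signals lay above both WT signals in 8 members (17.9% of all probe sets) and below them in 7 (21.1% of all), and the genotypes overlapped in the other 14. The members' shares above and below were 27.6% and 24.1%, and their difference from all probe sets was not tested.

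In the longer panicles, the pair that includes the array that stood apart, ratios spread most widely in class I. At 9–12 cm, 8 of 12 class I genes were at least 2-fold apart between the genotypes, compared with 2 of 7 in class II, 1 of 4 in class III and 0 of 6 in class IV, and with 23.7% of all tested probe sets. The median size of the log2 ratio, regardless of sign, was 1.75 in class I, 0.65 in class II, 0.60 in class III and 0.22 in class IV, and 0.52 over all tested probe sets. Class I had members in both directions, between -1.88 for *HOX20* and 2.88 for *HOX22*, with *HOX24* above that by an amount that depends on the background, so that its median log2 fold change over the 4 arrays was only 0.41, compared with -0.03 over all tested probe sets. At 5–8 cm the classes stood in another order, with a median size of 0.24 in class I, 0.45 in class II, 0.14 in class III and 0.25 in class IV, and 0.29 over all. No test was made of the difference between classes, whose members were read on the same 4 arrays.

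**Figure D1:**
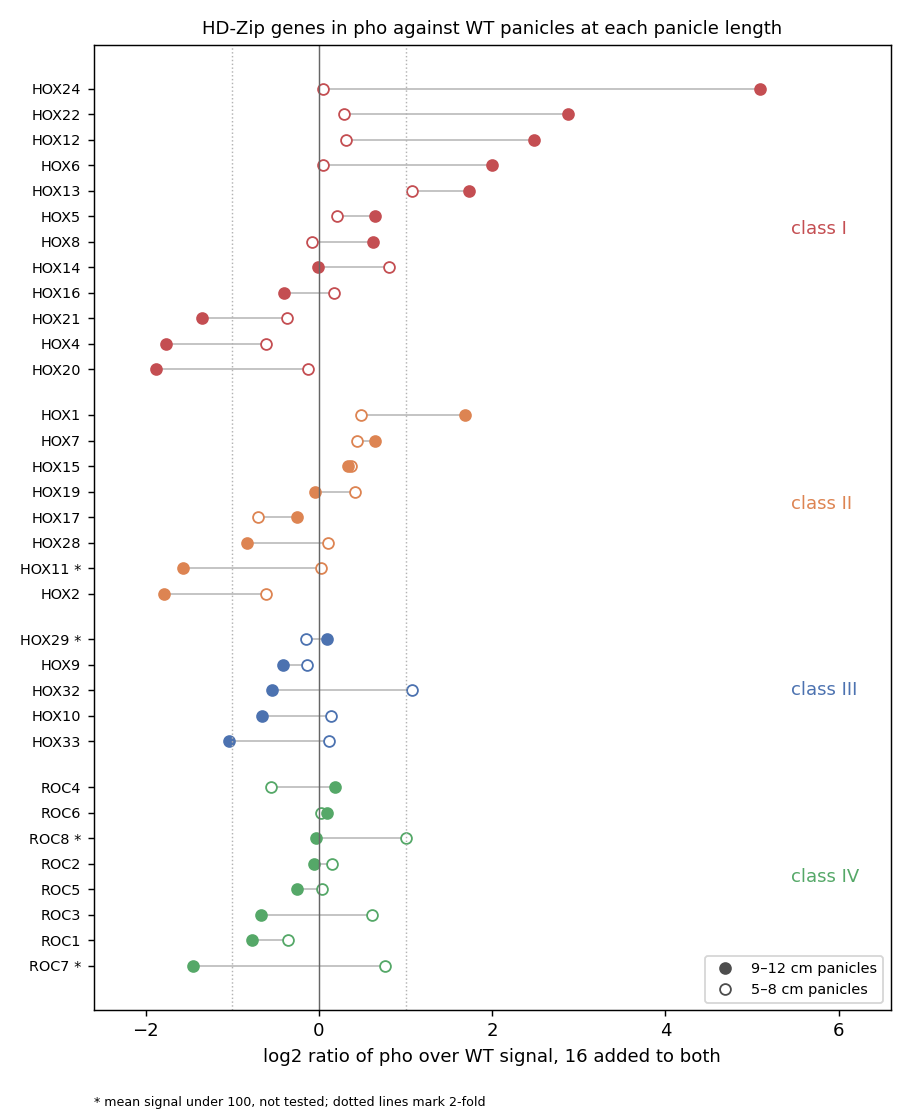
Log2 ratio of *pho* over WT signal (16 added to both) for each of the 33 HD-Zip genes, by class and ordered by the ratio at 9–12 cm. Filled points are panicles of 9–12 cm and open points panicles of 5–8 cm, 1 array per genotype for each point, and the dotted lines mark 2-fold. Class I spans -1.88 to 2.88 at 9–12 cm without *HOX24*, whose point depends on a WT signal under the array median, whereas the tested class IV genes stay between -0.78 and 0.19.

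*HOX13*, a class I gene, was the member at least 2-fold higher in *pho* at both lengths. It lies on chromosome 3 from 4664330 to 4666218. It had signals of 3662 and 1901 in *pho* at 9–12 and 5–8 cm, and of 1088.5 and 897 in WT. Both *pho* signals lay above both WT signals, and the mean was 2782 ± 1246 in *pho* and 993 ± 135 in WT (SD, n = 2 each). The limma estimate was 1.40 on the log2 scale (SE 0.408, adjusted p = 0.636), and the adjusted p ranged from 0.0857 to 1 over all settings tried. *HOX13* had the smallest adjusted p of the 29 members, each read by its probe set with the highest mean. A further probe set of *HOX10* had a smaller one, 0.414 from limma.

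*HOX22* and *HOX24* belong with *HOX6* to the class I subgroup related to *ATHB7* and *ATHB12* of *Arabidopsis*, genes induced by ABA and drought. All 3 were close to WT at 5–8 cm and higher in *pho* at 9–12 cm. *HOX22*, on chromosome 4 from 27629111 to 27630450, had signals of 1321 in *pho* and 166 in WT at 9–12 cm, and of 683 in *pho* and 558 in WT at 5–8 cm. *HOX24*, on chromosome 2 from 26629658 to 26631078, had 692 in *pho* and 4.70 in WT at 9–12 cm, and 223 in *pho* and 215 in WT at 5–8 cm. The WT signal of 4.70 lies under the median of its array, so the log2 ratio of 5.10 depends on the background and on the 16 added, and no plain fold is given. *HOX6* had 1643 in *pho* and 398 in WT at 9–12 cm, and 303 in *pho* and 292 in WT at 5–8 cm. In *HOX22* and *HOX24* the *pho* signals did not overlap with those of WT, whereas in *HOX6* they did, because the *pho* signal of 303 lay under the WT signal of 398. The log2 fold changes over the 4 arrays were 1.58 for *HOX22*, 2.57 for *HOX24* and 1.03 for *HOX6* (adjusted p = 0.741, 0.762 and 0.808 from limma). Without the *pho* array of 9–12 cm, that of *HOX6* was -0.16 and those of *HOX22* and *HOX24* were 1.11 and 1.79. Without the WT array of 9–12 cm they were 0.75 for *HOX22* and 0.83 for *HOX24*, and without the WT array of 5–8 cm 2.41 and 4.31. The log2 fold change of *HOX24* was 3.49 with a smaller and 1.75 with a larger pseudocount than 16.

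*HOX12*, whose product binds the promoter of the gibberellin-inactivating gene *EUI1* and acts in panicle exsertion, showed the same kind of difference. Its signals were 6911 in *pho* and 1226 in WT at 9–12 cm, and 4393 in *pho* and 3544 in WT at 5–8 cm. It lies on chromosome 3 from 5227783 to 5229310, and the limma estimate was 1.39 on the log2 scale (SE 0.576, adjusted p = 0.738). Without the WT array of 9–12 cm it was 0.635, and without the WT array of 5–8 cm it was 2.154. *EUI1* itself had lower signals in *pho*, with 213 and 267 in *pho* and 611 and 535 in WT at 9–12 and 5–8 cm, and did not pass the test either (adjusted p = 0.610 from limma). Whether the differences of *HOX12* and *EUI1* are linked was not tested. *HOX14*, another class I gene, had 370.3 in *pho* and 372 in WT at 9–12 cm, and 1544 in *pho* and 873 in WT at 5–8 cm. The signals of the genotypes were apart at the shorter length only, and by less than 2-fold. *HOX5* and *HOX8* had log2 ratios of 0.65 and 0.62 at 9–12 cm and of 0.20 and -0.08 at 5–8 cm.

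Other class I genes had lower signals in *pho*. *HOX4*, which shortens the plant when overexpressed and acts on gibberellin responses, had signals of 1951 in *pho* and 6686 in WT at 9–12 cm, and of 3644 in *pho* and 5576 in WT at 5–8 cm. It lies on chromosome 9 from 22286360 to 22288063, and the limma estimate was -1.19 on the log2 scale (SE 0.374, adjusted p = 0.657), or -1.64 without the *pho* array of 5–8 cm and -0.74 without that of 9–12 cm. *HOX20* had 544 in *pho* and 2047 in WT at 9–12 cm, and 1642 in *pho* and 1793 in WT at 5–8 cm. A second probe set of *HOX20* showed the same order, with 191 in *pho* and 786 in WT at 9–12 cm and 524 in *pho* and 731 in WT at 5–8 cm. *HOX21* had 829 in *pho* and 2145 in WT at 9–12 cm, and 1346 in *pho* and 1748 in WT at 5–8 cm. The first probe set of *HOX20* and that of *HOX21* can match several transcripts. In *HOX4*, *HOX20* and *HOX21* both *pho* signals lay below both WT signals, and the difference was again larger at 9–12 cm. Without the *pho* array of 9–12 cm, the log2 fold change was -0.22 for *HOX20* and -0.52 for *HOX21*. *HOX16* had 12149 in *pho* and 16042 in WT at 9–12 cm and 16306 in *pho* and 14483 in WT at 5–8 cm, so that the genotypes overlapped.

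**Figure D2:**
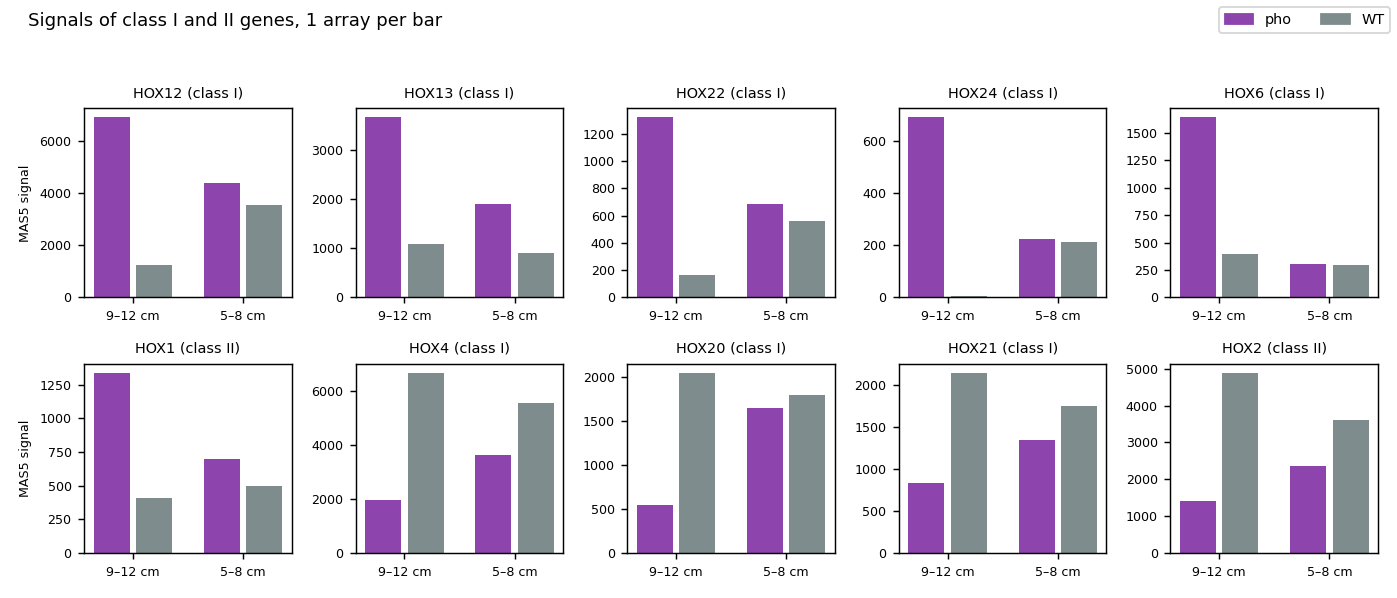
MAS5 signal, on a linear axis from 0 with its own scale in each panel, of 10 class I and II genes in *pho* and WT at each panicle length. Each bar is 1 array, so there are no error bars. *HOX12*, *HOX22*, *HOX24*, *HOX6* and *HOX1* are at least 2-fold higher in *pho* only at 9–12 cm, *HOX13* is higher at both lengths, and *HOX4*, *HOX20*, *HOX21* and *HOX2* are lower in *pho*, mostly at 9–12 cm.

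Class II held members in both directions too. *HOX1*, which acts in the formation of vascular tissue, had signals of 1339 in *pho* and 406 in WT at 9–12 cm, and of 702 in *pho* and 498 in WT at 5–8 cm (limma estimate 1.08 on the log2 scale, SE 0.416, adjusted p = 0.726). *HOX2* had 1402 in *pho* and 4892 in WT at 9–12 cm, and 2352 in *pho* and 3601 in WT at 5–8 cm (limma estimate -1.20 on the log2 scale, SE 0.367, adjusted p = 0.650). Both genes separated the genotypes, in opposite directions. Without the *pho* array of 9–12 cm the estimates were 0.62 for *HOX1* and -0.83 for *HOX2*. *HOX2* lies on chromosome 6 from 2294998 to 2296503, next to *HOX28*, from 2280820 to 2282195, which acts with *HOX1* in the control of tiller angle. *HOX28* had 395 in *pho* and 716 in WT at 9–12 cm, and 699 in *pho* and 648 in WT at 5–8 cm, so that its genotypes overlapped. The probe sets of *HOX7* were higher in *pho* at both lengths, with log2 ratios between 0.16 and 0.87. *HOX15*, *HOX17* and *HOX19*, read by the probe set with the highest mean, had log2 ratios between -0.71 and 0.42 at either length.

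HD-Zip genes whose signals ran in opposite directions with panicle length in the 2 genotypes were about as common as among all probe sets. Signals were higher at 9–12 than at 5–8 cm in *pho* and lower in WT for 5 of 29 members (15.5% of all tested probe sets), namely *HOX12*, *HOX22*, *HOX24*, *HOX1* and *HOX17*. They were lower in *pho* and higher in WT for 7 members (21.9% of all), among them *HOX4*, *HOX20*, *HOX21* and *HOX2*. The log2 difference of 9–12 from 5–8 cm was 0.65 in *pho* and -1.52 in WT for *HOX12*, 0.94 in *pho* and -1.66 in WT for *HOX22*, and -0.90 in *pho* and 0.26 in WT for *HOX4*. At least 2-fold differences between the lengths were found for 10 members in *pho* and 5 in WT, or 34.5% and 17.2% of them, compared with 24.3% and 9.85% of all tested probe sets. The differences between the lengths for *HOX12*, *HOX22* and *HOX24* thus lay in both genotypes and were larger in WT. Those for *HOX4*, *HOX20*, *HOX21* and *HOX2* were larger in *pho*, the genotype whose longer panicles gave the array that stood apart. Whether a difference between genotypes depends on length was not tested, since 4 arrays leave no spread for such a test.

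**Figure D3:**
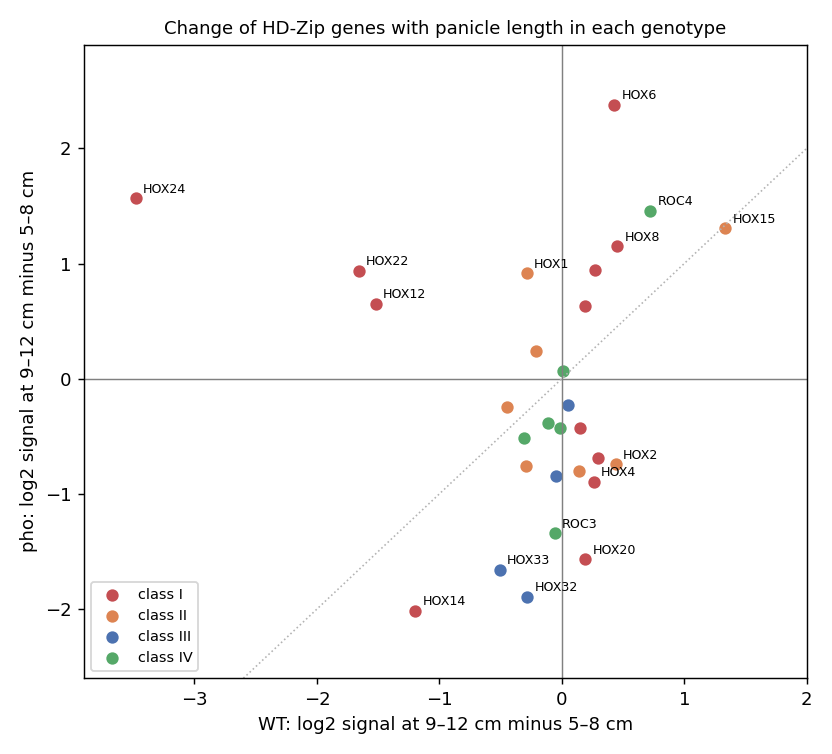
Log2 difference between panicles of 9–12 and 5–8 cm (16 added to each signal) in *pho* (vertical axis) and in WT (horizontal axis) for the 29 tested HD-Zip genes, each point 1 gene and 1 array per length and genotype. On the dotted line both genotypes differ equally. *HOX12*, *HOX22* and *HOX24* lie at the upper left, with 0.65, 0.94 and 1.57 in *pho* and -1.52, -1.66 and -3.48 in WT, and *HOX15* lies near the line.

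With genotype as a term, 0 of 29 members differed between the lengths at an adjusted p under 0.05 in limma (0% of all tested probe sets), and 4 did at an unadjusted p under 0.05, compared with 2525 of all. These were *HOX14*, *HOX15*, *HOX33* and *HOX6*. *HOX15* had 780 and 306 in *pho* and 612 and 234 in WT at 9–12 and 5–8 cm, higher in the longer panicles of both genotypes (adjusted p = 0.378 from limma). *HOX14* was lower in the longer panicles of both (adjusted p = 0.330 from limma).

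Read by the probe set with the highest mean, class III genes differed little between the genotypes at 5–8 cm, *HOX32* excepted. On these probe sets all 4 tested members had lower signals in *pho* at 9–12 cm. A further probe set of *HOX10*, given below, was higher in *pho* at both lengths. *HOX9* and *HOX10*, also named *OSHB2* and *OSHB1*, are expressed on the upper side of leaf primordia and in the meristem. *HOX9* had 2984 in *pho* and 3981 in WT at 9–12 cm, and 3498 in *pho* and 3851 in WT at 5–8 cm. *HOX10* had 3174 in *pho* and 5000 in WT at 9–12 cm, and 5696 in *pho* and 5173 in WT at 5–8 cm. The genotypes were separate for *HOX9*, by a small margin, and overlapped for *HOX10*. *HOX33*, which has been linked to leaf senescence, had 2315 in *pho* and 4759 in WT at 9–12 cm, and 7335 in *pho* and 6766 in WT at 5–8 cm. *HOX32*, which has been linked to leaf rolling, had 501.5 in *pho* and 736 in WT at 9–12 cm, and 1906 in *pho* and 897 in WT at 5–8 cm. *HOX32* was therefore higher in *pho* in the shorter panicles and lower in the longer ones. The log2 fold changes of the 4 genes lay between -0.46 and 0.27, with adjusted p of 0.821 to 0.936 from limma. Within *pho*, *HOX33* and *HOX32* had log2 differences of -1.66 and -1.89 between the lengths, compared with -0.51 and -0.28 in WT.

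The probe sets of *HOX10* disagreed. The probe set described above had the higher mean signal, while the other read 606 and 722 in *pho* and 203 and 156 in WT at 9–12 and 5–8 cm. In this probe set *pho* was higher by 1.51 and 2.10 on the log2 scale, and the genotypes did not overlap (limma estimate 1.80 on the log2 scale, adjusted p = 0.414). With the mean over both probe sets, the log2 fold change of *HOX10* was 0.77 instead of -0.26. Which transcripts each probe set reads was not examined here. Of the other 6 members with more than 1 probe set, *HOX20*, *HOX7* and *HOX16* kept their direction at both lengths on every probe set. For *HOX5*, *HOX19* and *ROC6* a further probe set went the other way at 1 or both lengths, with a mean signal under 100 in each case.

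Class IV, whose genes mark the epidermis, had the smallest median size of the ratio, regardless of sign, of the classes at 9–12 cm. *ROC1*, a marker of the outermost cell layer from the embryo on, had signals of 3927 in *pho* and 6733 in WT at 9–12 cm, and of 5282 in *pho* and 6792 in WT at 5–8 cm. Its *pho* signals lay below those of WT (limma estimate -0.57 on the log2 scale, SE 0.253, adjusted p = 0.758). *ROC5*, whose loss alters the bulliform cells that roll the leaf, had 4709 in *pho* and 5594 in WT at 9–12 cm, and 6169 in *pho* and 6039 in WT at 5–8 cm. *ROC2* had 4671 in *pho* and 4871 in WT at 9–12 cm, and 6699 in *pho* and 6045 in WT at 5–8 cm. *ROC6* had 2207 in *pho* and 2072.0 in WT at 9–12 cm, and 2102 in *pho* and 2058 in WT at 5–8 cm, which is nearly the same signal on every array. *ROC3* had 846 in *pho* and 1355 in WT at 9–12 cm, and 2163 in *pho* and 1412 in WT at 5–8 cm. *ROC4*, which promotes wax formation on leaves, had 289 in *pho* and 252 in WT at 9–12 cm, and 95 in *pho* and 147 in WT at 5–8 cm. For *ROC2*, *ROC3*, *ROC4* and *ROC5* the order of the genotypes was not the same at both lengths. The log2 fold changes of *ROC2* to *ROC6* lay between -0.18 and 0.06, with adjusted p of 0.929 to 0.991 from limma.

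**Figure D4:**
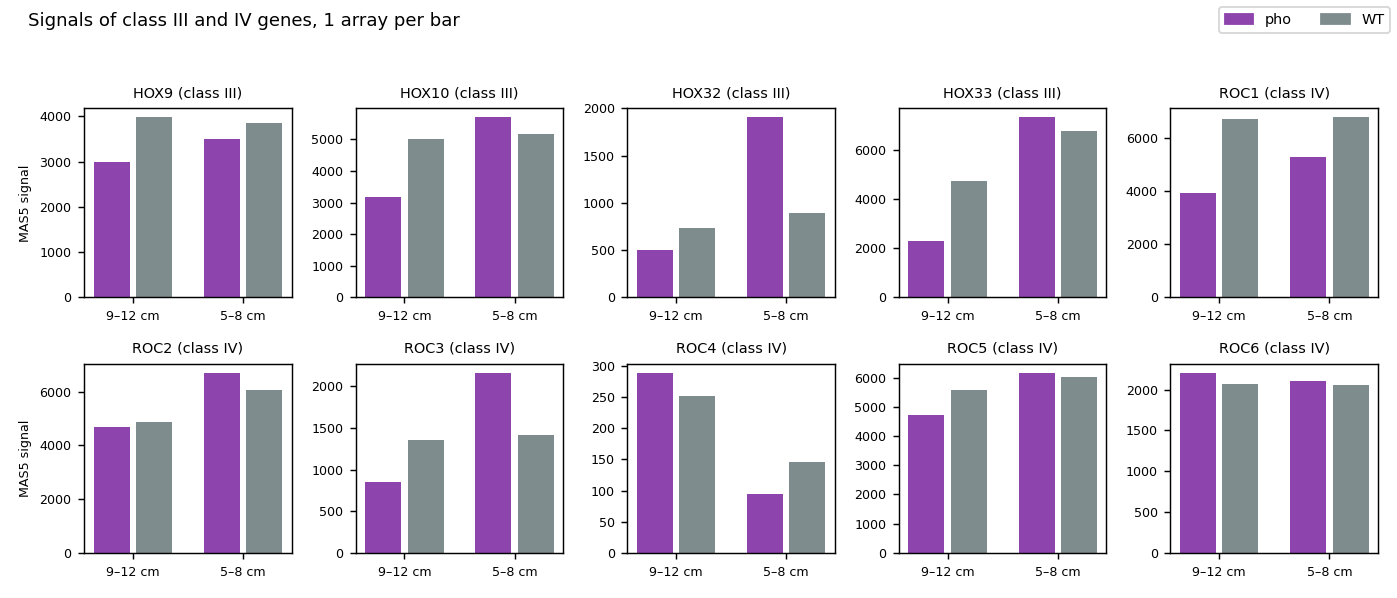
MAS5 signal, on a linear axis from 0 with its own scale in each panel, of the tested class III and class IV genes in *pho* and WT at each panicle length. Each bar is 1 array, so there are no error bars. *ROC6* reads 2058 to 2207 on every array, and *HOX33* and *HOX32* are lower in the longer *pho* panicles than in the shorter ones.

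A further 4 members had a mean signal under 100 and were not tested. *HOX11*, *HOX29*, *ROC7* and *ROC8* had signals between 14.8 and 105.9 on all arrays, beside array medians of 49.0 to 68.1. No difference was read from them. The haemoglobin genes that share the *HB* name had signals of 445 and 93.9 in *pho* and 3.40 and 59.5 in WT for *NSHB1*, and of 1104 and 217 in *pho* and 96.3 and 242 in WT for *NSHB2*, at 9–12 and 5–8 cm. The WT signal of 3.40 for *NSHB1* lies under the median of its array. Further probe sets of *NSHB1* read 256 and 211.6 in *pho* and 72.9 and 71 in WT at 9–12 cm. These haemoglobin genes are not homeobox genes and entered no count above.

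Genes that act beside the HD-Zip classes were looked up by name. Of 15 tested genes of the drought and ABA response, 12 were higher in *pho* at both lengths and 0 lower at both, 6 of them at least 2-fold at both, beside 6818 of all 23929 tested probe sets higher at both and 569 at least 2-fold, and 0 passed in limma (7 at an unadjusted p under 0.05, all higher). *RAB21*, a dehydrin gene, had 8350 in *pho* and 27.2 in WT at 9–12 cm, and 14466 in *pho* and 4089 in WT at 5–8 cm. Its WT signal of 27.2 lies under the median of that array, 60.5. *SNAC2*, a stress-induced NAC gene, had 3647 in *pho* and 255 in WT at 9–12 cm, and 1089 in *pho* and 761 in WT at 5–8 cm. In WT both were lower in the longer panicles, as *HOX22* and *HOX24* were, while in *pho* only *SNAC2* was higher there. Signals higher in the longer panicles in *pho* and lower in WT were found for 4 of the 15 genes. The same held for 8 of 11 leaf and chloroplast genes and for 3719 of all tested probe sets. Whether these genes are linked to *HOX22* and *HOX24* was not tested. *ABA8OX1*, which encodes an enzyme that breaks down ABA, had 5450.3 and 3005 in *pho* and 423 and 274 in WT. The other 3 of the 15 genes had opposite directions at the 2 lengths. Among them, *SALT* had 30061 in *pho* and 6955.5 in WT at 9–12 cm, and 488 in *pho* and 9144 in WT at 5–8 cm. Of 10 tested genes of leaf polarity, the process in which class III acts, 6 were lower in *pho* at both lengths and 1 higher, 3 of them at least 2-fold lower at both, beside 7768 of all tested probe sets lower at both and 454 at least 2-fold, and 0 passed in limma (3 at an unadjusted p under 0.05, all lower). *YAB1*, a YABBY gene, had 3768 and 3276 in *pho* and 17445 and 14550 in WT, and *SHL2*, which acts in the making of small RNAs, had 337 and 417 in *pho* and 984 and 950.0 in WT. Of 23 epidermis and cuticle names only 3 led to a gene read by a probe set that names no other gene. Of these, *WSL3* and *DSM3* were higher in *pho* at both lengths, without overlap, by 0.33 and 0.48 for *WSL3* and by 0.55 and 0.36 for *DSM3* on the log2 scale at 9–12 and 5–8 cm. Both were matched by symbol alone. Whether the matched *WSL3* and *DSM3* act in the epidermis or cuticle was not checked, so they are not read as a result about it. The third, *CR4*, a receptor kinase of the epidermis, had 1395 and 2016 in *pho* and 3229 and 2842 in WT at 9–12 and 5–8 cm.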

How the data were processed

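Total RNA was hybridized to 1-colour Affymetrix GeneChip Rice Genome Arrays. The authors made the deposited intensity values by running MAS5 within GCOS (versions not given in the sources used here) and scaled each array to an equal overall intensity, so the values are linear signals on 1 array per sample. Detection calls were not used here. From these signals, log2(signal + 16) was fitted in limma 3.58.1 (R 4.3.3; lmFit, then eBayes with trend) with genotype as the only term, over the 23929 of 57258 probe sets whose signal averaged at least 100 (two-sided, Benjamini-Hochberg adjustment, threshold 0.05), and 123 control probe sets were left out. A second fit had genotype and panicle length as terms. Members were paired with genes through the array annotation and the *japonica* assembly, although the plants were *indica*, and the probe set with the highest mean represents a gene. Names had to end in the number, so *HAZ1* (*HOX1A*) was left out, and so was *WOX4*, which has the synonym *hb3*. Protein sequences were not used, and classes follow the gene names. Of the 33 members, 9 are read by probe sets ending in _s_at or _x_at, which can match several transcripts. These are *HOX8*, *HOX11*, *HOX15*, *HOX17*, *HOX19*, *HOX20*, *HOX21*, *ROC7* and *ROC8*.

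The members and lists were chosen with earlier results of these data known. Values per array are given for class III and IV genes, for genes at least 2-fold apart at both lengths and for the 2 genes of each class with the highest signals, and those of *HOX5*, *HOX6*, *HOX8*, *HOX12*, *HOX14*, *HOX15*, *HOX20*, *HOX21*, *HOX22*, *HOX24*, *HOX28* and the list genes were picked after their values were seen. Replicate numbers stand for panicle length in the labels. Deviations from the genotype mean correlated at 0.311 between the *pho* and WT arrays of 5–8 cm, and with 2 pairs this was not taken to settle a pairing. Alternatives were other pseudocounts, filters and normalizations, panicle length as a replicate block, no trend, the mean over the probe sets of a gene, no multi-transcript probe sets, and leaving out each array. The fit was tested on simulated data, which held no effect of panicle length and no array that stood apart. Tables were made with pandas 2.3.3 and numpy 2.4.6 in Python 3.11.15, and figures with matplotlib 3.10.9.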

Additional observations from a re-analysis of the deposited data

How the results depend on the processing

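Among the 14 alternatives tried, those that kept every array gave 0 HD-Zip genes past the threshold in limma. Without the filter, 7 of 33 members had an unadjusted p under 0.05 in limma, compared with 3291 of 57258 probe sets. The rest of the alternatives with every array gave 3 to 5 such members, compared with 1258 to 2526 of all probe sets. Under the other pseudocounts, filters, normalizations and probe set choices, *HOX13* alone was at least 2-fold higher in *pho* at both lengths, with none at least 2-fold lower. The count of all probe sets past the threshold was 0 in the main setting, 40 with panicle length as a replicate block and 51 after centring arrays on their medians (11 higher and 40 lower). Centring lowered the median log2 fold change of all tested probe sets to -0.12, compared with -0.03. The replicate block changed no call of a member. Leaving out an array moved the smallest adjusted p of a member between 0.0835 (*HOX4*, without the *pho* array of 5–8 cm) and 1 (without the WT array of 9–12 cm). Without 1 array in turn, the log2 fold change ranged from -0.68 to 0.16 for *HOX10*, -0.33 to 0.10 for *HOX16*, -0.68 to 1.21 for *HOX32*, -1.29 to 0.37 for *HOX33*, -0.16 to 2.22 for *HOX6*, -0.22 to 0.30 for *ROC2*, -0.70 to 0.64 for *ROC3*, -0.91 to 0.55 for *ROC4* and -0.30 to 0.086 for *ROC5*. It was 0.77 for *HOX10* with the mean over its probe sets, and -0.041 for *ROC2* and -0.025 for *ROC6* with centred arrays. The causes were not tested. The number of arrays, 2 per genotype, limits the precision of every value.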
